A study of Homo sapiens with 2 samples.

Results

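RNA-seq counts of 8 genes for AU-rich element binding proteins were compared in T24/R cells after THZ1 or its solvent. The genes were ZFP36, ZFP36L1, ZFP36L2, KHSRP, ELAVL1, TIA1, TIAL1 and AUH, a named set of proteins that speed the decay of AU-rich mRNAs or stabilize them. Ensembl gene IDs of both libraries were matched to symbols, and all 8 were found among 58884 listed gene IDs. All 8 also passed the count minimum, 30 or more counts in at least 1 library, as did 12457 genes in all. T24/R is an adherent epithelial line from the urinary bladder, which the study's title places among chemoresistant urothelial carcinoma models. The THZ1 library came from cells given 1600 nM for 6 h, and the DMSO library from cells given the solvent for 6 h. THZ1 is a covalent inhibitor of CDK7, the kinase of the transcription factor TFIIH, and it also acts on CDK12 and CDK13. Each group had 1 library, so every difference stands without replicates and is reported with no p-value.

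AU-rich elements are stretches of A and U, often built on a pentamer of the form ATTTA in DNA letters, in the 3′ untranslated regions (UTRs) of short-lived mRNAs. ZFP36 (tristetraprolin) and its relatives ZFP36L1 and ZFP36L2 bind them through CCCH zinc fingers and recruit the CCR4-NOT deadenylase. KHSRP binds through KH domains and brings in decay enzymes, while ELAVL1 (HuR) binds the same kind of sequence and protects the mRNA. TIA1 and TIAL1 (TIAR) hold AU-rich mRNAs back from translation and collect in stress granules. AUH is a mitochondrial hydratase of leucine breakdown that also binds AU-rich RNA.

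Several of these genes carry AU-rich elements in their own mRNAs. Shown here are, for 6 members and for the target mRNAs FOS and CXCL8, the 30 bases of the longest annotated 3′ UTR that hold the most copies of the heptamer TATTTAT, which is the core that ZFP36 proteins prefer. Sequences are from GENCODE 29 transcripts on GRCh38, 5′ to 3′ with T for U, and the heptamers are in capitals, merged where they overlap.
ZFP36: ccttTATTTATgacgacttTATTTATtcta
ZFP36L1: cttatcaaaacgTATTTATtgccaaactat
ZFP36L2: aactatttaactTATTTATtatcttgtgaa
ELAVL1: TATTTATaccTATTTATgTATTTATTTATt
TIA1: tcagatacaatgTATTTATttaaaagattc
TIAL1: ggaaaatgaaaaTATTTATtttaaaaattg
FOS: gtgtttttaattTATTTATtaagatggatt
CXCL8: aaccTATTTATTATTTATgTATTTATttaa
The ZFP36 window lies at chr19:39409188-39409217 (+), that of ZFP36L1 at chr14:68788336-68788365 (-), that of ZFP36L2 at chr2:43223448-43223477 (-) and that of ELAVL1 at chr19:7961838-7961867 (-). Those of TIA1 and TIAL1 lie at chr2:70212590-70212619 (-) and chr10:119575555-119575584 (-), and those of FOS and CXCL8 at chr14:75282059-75282088 (+) and chr4:73743109-73743138 (+). The whole 3′ UTR held 3 heptamers in each of ZFP36 (713 bases), ZFP36L1 (2828 bases) and ZFP36L2 (1917 bases). ELAVL1 held 5 in 4904 bases, TIA1 1 in 3275 and TIAL1 1 in 3863. KHSRP (764 bases) and AUH (533 bases) held 0. Among 10855 tested coding genes with an annotated 3′ UTR, 37.0% held at least 1 heptamer and 7.54% held 3 or more. A match is a run of letters and not a proven binding site.

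The THZ1 library held 18313827 counts over 23528 genes, and the DMSO library held 18445831 counts over 23986 genes. Libraries were scaled with TMM factors, which assume that most genes do not differ. The ratios are therefore relative and cannot show a fall or rise shared by most genes. The log2 ratio is that of THZ1 over DMSO, and its 95% interval covers counting error only. A gene is called lower or higher where the ratio is at least 2-fold and the interval excludes a ratio of 1. By that rule 23.6% of tested genes were lower and 7.51% higher, and the median log2 ratio was −0.13. Mitochondrially encoded mRNAs made up 14.9% of THZ1 counts and 6.60% of DMSO counts, and their part in the ratios was not tested. Scaled to total counts instead, all log2 ratios shift by −0.41, with 34.2% of genes lower and 2.95% higher. Bulk counts cannot tell fewer cells of a type from less RNA per cell. Of 7 epithelial and urothelial markers, EGFR (2112 counts in THZ1 and 4316 in DMSO) and KRT18 (494 counts in THZ1 and 696 in DMSO) had the most counts. KRT8 had 100 counts in THZ1 and 77 in DMSO, KRT7 17 in THZ1 and 18 in DMSO, and KRT5 5 in THZ1 and 3 in DMSO. The epithelial junction and surface markers CDH1 (3 counts in THZ1 and 2 in DMSO) and EPCAM (3 counts in THZ1 and 0 in DMSO) were near 0. The 3 immune markers summed to 4 counts in THZ1 and 2 in DMSO, and the 4 fibroblast markers to 103 in THZ1 and 78 in DMSO.

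All 3 ZFP36 family genes, the destabilizers that recruit CCR4-NOT, were lower in the THZ1 library. ZFP36L1 (ENSG00000185650, chromosome 14 from 68787660 to 68796253) had 1610 counts in THZ1, against 6767 in DMSO. Its log2 ratio was −1.65 (−1.73 to −1.57), or 3.13-fold lower, and 12.6% of tested genes had a lower ratio. ZFP36L2 (ENSG00000152518, chromosome 2 from 43222402 to 43226609) had 41 counts in THZ1, against 383 in DMSO. Its log2 ratio was −2.79 (−3.30 to −2.33), a 6.89-fold lower value, and 3.02% of tested genes had a lower ratio. ZFP36 itself (ENSG00000128016, chromosome 19 from 39406813 to 39409412) had 20 counts in THZ1 and 66 in DMSO. Its log2 ratio was −1.27 (−2.10 to −0.56), or 2.42-fold lower, and its wide interval reaches inside 2-fold. For ZFP36, 18.4% of tested genes had a lower ratio. Of the 8 genes ZFP36 had the fewest counts in each library.

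Summed over the family, 1671 counts in THZ1 stood against 7216 in DMSO, a log2 ratio of −1.69 (−1.77 to −1.61). ZFP36L1 made up most of the family in both libraries. As TMM-scaled CPM per kilobase of exon, its level was 19.7 in THZ1 and 61.6 in DMSO. On the same scale ZFP36L2 stood at 0.699 in THZ1 and 4.87 in DMSO, and ZFP36 at 0.627 in THZ1 and 1.54 in DMSO. By counts, ZFP36L2 took 2.45% of the family in THZ1 (exact binomial interval 1.77% to 3.31%), against 5.31% in DMSO (4.80% to 5.85%). Relative to ZFP36L1, ZFP36L2 was also lower in THZ1. The quotient of ZFP36L2 to ZFP36L1 counts was 0.0255 in THZ1 and 0.0566 in DMSO, with a ratio of 0.450 (0.316 to 0.625). For ZFP36 against ZFP36L1 the same quotients were 0.0124 in THZ1 and 0.00975 in DMSO, and the interval of their ratio (0.729 to 2.13) includes 1.

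KHSRP, the KH-domain destabilizer (ENSG00000088247, chromosome 19 from 6413348 to 6424794), had 1737 counts in THZ1 and 3539 in DMSO. Its log2 ratio of −0.60 (−0.69 to −0.52) lies within 2-fold, a 1.52-fold lower value that was not called. With total counts it becomes −1.02 and is called lower. Its 1 processed pseudogene in the annotation, KHSRPP1, had 0 counts in both libraries.

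The stabilizer ELAVL1 (ENSG00000066044, chromosome 19 from 7958579 to 8005659) had 1716 counts in THZ1, against 2128 in DMSO. Its log2 ratio was 0.11 (0.02 to 0.20) on TMM scaling and −0.30 with total counts, so its direction depends on the scaling. An antisense gene overlaps 528 of its 6956 exonic bases and had 0 counts in both libraries.

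The paralogs TIA1 and TIAL1 differed from each other. TIAL1 (ENSG00000151923, chromosome 10 from 119571802 to 119597029) had 980 counts in THZ1 and 2764 in DMSO. Its log2 ratio of −1.07 (−1.18 to −0.97) passed the rule by a narrow margin, and 22.1% of tested genes had a lower ratio. With TMM factors computed only on genes with 30 or more counts, the ratio of TIAL1 was −0.97 and it was not called. TIA1 (ENSG00000116001, chromosome 2 from 70209444 to 70248660) had 760 counts in THZ1 and 1015 in DMSO, with a log2 ratio of 0.01 (−0.13 to 0.14), −0.41 with total counts and −0.002 with DESeq2 size factors. Within the libraries, the quotient of TIAL1 to TIA1 counts was 1.29 in THZ1 and 2.72 in DMSO. That quotient was 2.11-fold lower (1.87 to 2.38) and does not depend on scaling. The neighbouring gene C2orf42 on the same strand shares 211 of TIA1's 6607 exonic bases. Reads there may have been left out or counted for either gene, since the settings are not given. C2orf42 had 21 counts in THZ1 and 165 in DMSO.

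AUH (ENSG00000148090, chromosome 9 from 91213815 to 91361913), the mitochondrial enzyme, had 124 counts in THZ1 and 129 in DMSO. Its log2 ratio of 0.37 (−0.001 to 0.73) was the highest of the 8 on TMM scaling and −0.05 with total counts. It was not called with either.

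**Figure D1:**
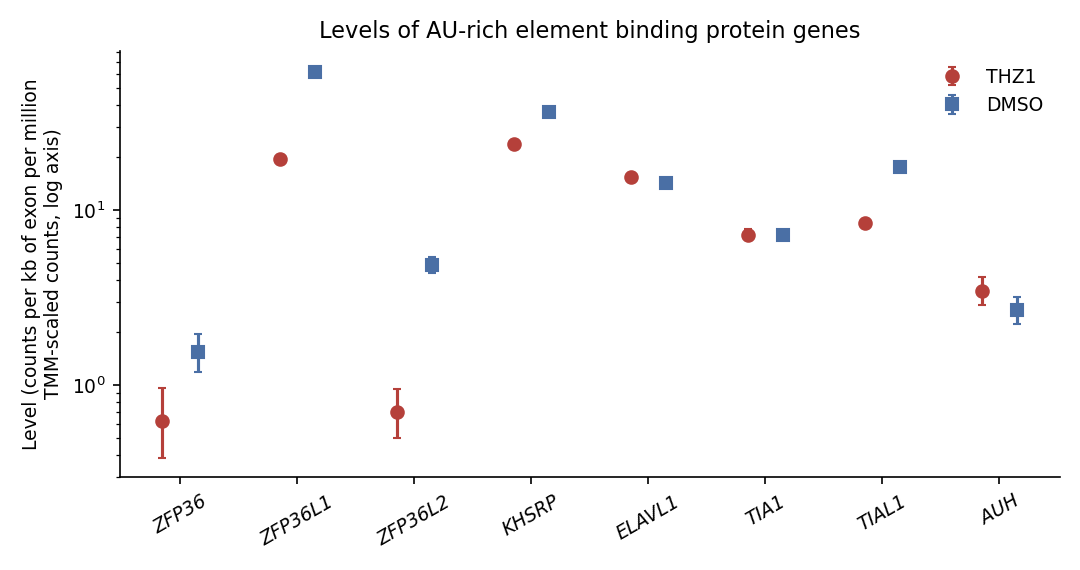
Level of each gene in the THZ1 library (red circles) and the DMSO library (blue squares), as TMM-scaled CPM per kilobase of exon on a log axis; bars are exact 95% Poisson intervals, for counting error only. ZFP36L1 stands at 19.7 in THZ1 and 61.6 in DMSO, while ELAVL1 and TIA1 stand almost level on this scaling.

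The order of levels also differed between the libraries. In THZ1, KHSRP was highest of the 8 (Poisson interval 22.9 to 25.1 CPM per kilobase), above ZFP36L1 at 19.7 (18.7 to 20.6). In DMSO, ZFP36L1 was highest at 61.6, above KHSRP at 36.4. ELAVL1 stood at 15.5 in THZ1 and 14.4 in DMSO, TIAL1 at 8.39 in THZ1 and 17.7 in DMSO, and TIA1 at 7.25 in THZ1 and 7.22 in DMSO. AUH stood at 3.46 in THZ1 and 2.68 in DMSO. ELAVL1 thus lay above TIAL1 in THZ1 and below it in DMSO. Among neighbours in this order, only ZFP36L2 and ZFP36 in THZ1 had overlapping Poisson intervals (0.501 to 0.948 and 0.383 to 0.968). In DMSO their intervals were 4.39 to 5.38 and 1.19 to 1.96, with AUH between them.

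In all, 4 of the 8 genes were called lower (ZFP36, ZFP36L1, ZFP36L2 and TIAL1) and 0 higher, beside 23.6% lower and 7.51% higher among all tested genes. The median of the 8 log2 ratios was −0.84, beside −0.13 for all tested genes. With total counts 5 were lower, beside 34.2% of all genes. With upper-quartile scaling 2 were lower, ZFP36L1 and ZFP36L2, beside 14.1% lower and 24.4% higher among all genes. The same 2 were lower where the whole interval had to lie beyond 2-fold, beside 17.0% lower and 4.0% higher among all genes. Scaled to the mitochondrially encoded mRNAs, all 8 were lower, but so were 80.3% of all genes, with 0.706% higher. ZFP36L1 and ZFP36L2 were called lower under each of the 6 scalings tried.

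**Figure D2:**
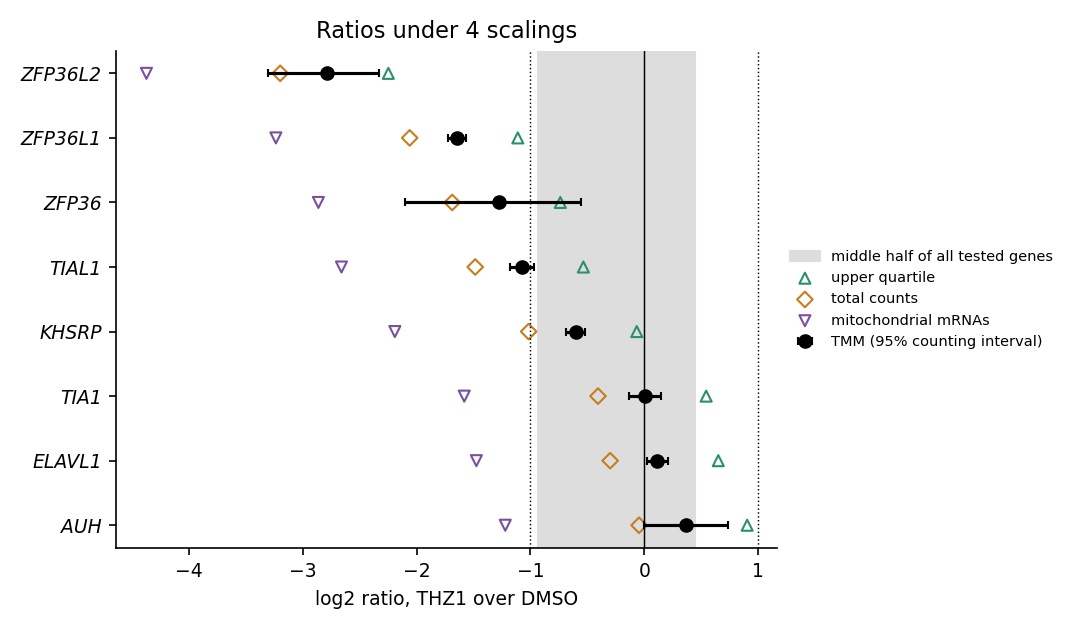
Log2 ratio of THZ1 over DMSO for each gene, with black points for TMM scaling (bars are 95% counting intervals), open symbols for 3 other scalings, the quartile range of all tested genes shaded and dotted lines at 2-fold. ZFP36L2 (−2.79) and ZFP36L1 (−1.65) lie left of the dotted line under each scaling shown.

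Counts set against each other inside 1 library need no scaling. Per ELAVL1 count, ZFP36L2 had 0.0239 counts in THZ1, against 0.180 in DMSO, 7.53-fold lower (5.41 to 10.7). ZFP36L1 had 0.938 counts per ELAVL1 count in THZ1 and 3.18 in DMSO, 3.39-fold lower (3.11 to 3.69). Per length, the level of ZFP36L1 (19.7 CPM per kilobase in THZ1 and 61.6 in DMSO) stayed above that of ELAVL1 (15.5 in THZ1 and 14.4 in DMSO) in both libraries. ZFP36 had 0.0117 counts per ELAVL1 count in THZ1 and 0.0310 in DMSO, 2.66-fold lower (1.59 to 4.65). TIAL1 was 2.27-fold lower per ELAVL1 count (2.06 to 2.51) and KHSRP 1.64-fold lower (1.51 to 1.79). TIA1 had 0.443 counts per ELAVL1 count in THZ1 and 0.477 in DMSO, and the interval of their ratio (0.827 to 1.04) includes 1. For AUH, with 0.0723 in THZ1 and 0.0606 in DMSO, it does so too (0.916 to 1.55). Relative to ELAVL1, the destabilizers and TIAL1 were thus lower in THZ1 by more than counting error, whichever scaling is used. Of all tested genes, 60.5% had a lower ratio than ELAVL1, so a lower value per ELAVL1 count is common. For KHSRP, 33.7% of tested genes had a lower ratio, which sets it little apart from other genes.

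**Figure D3:**
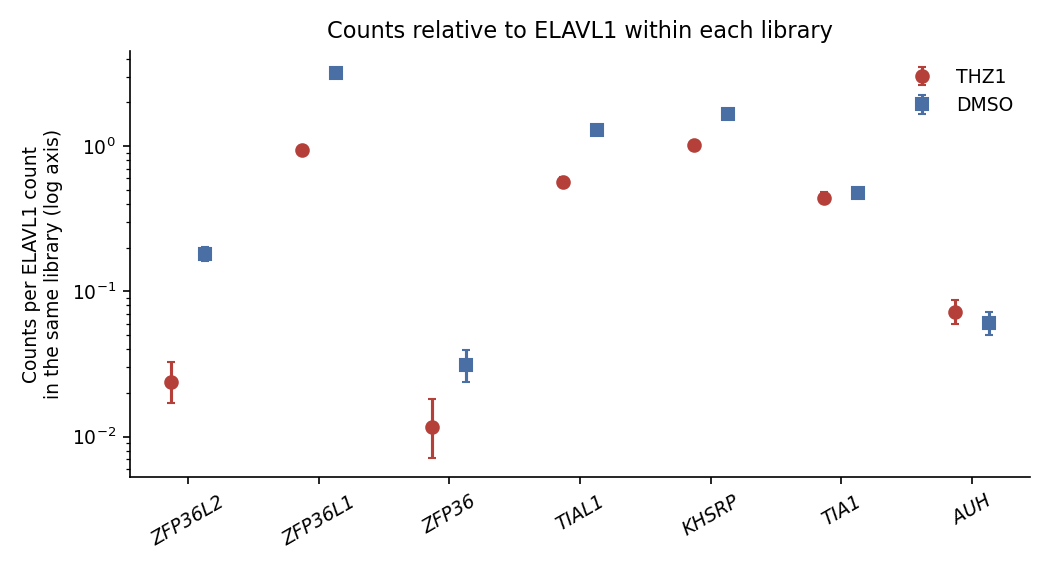
Counts of each gene divided by the counts of ELAVL1 in the same library, on a log axis, for THZ1 (red circles) and DMSO (blue squares); bars are exact 95% binomial intervals. Raw counts compare the libraries and not the genes, whose lengths differ. ZFP36L2 is lowest in THZ1 relative to DMSO (0.0239 in THZ1 against 0.180 in DMSO), whereas TIA1 (0.443 in THZ1 against 0.477 in DMSO) and AUH overlap.

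The 8 genes also differ in structure. The coding transcripts of ZFP36, ZFP36L1 and ZFP36L2 have 2 exons each, and the genes span 2600, 8594 and 4208 bases. The other 5 members have between 6 exons (ELAVL1) and 20 (KHSRP), and span from 11447 bases (KHSRP) to 148099 (AUH). Of the 3 members with 2 exons 3 were lower, and of the 5 with more exons 1 was lower. Among 446 tested coding genes with 2 exons, 219 (49.1%) were lower, with a median log2 ratio of −0.97. Of these, 239 spanned under 10 kb, as the ZFP36 genes do, and 103 (43.1%) were lower, with a median of −0.76. Among 10195 coding genes with 3 or more exons, 2330 (22.9%) were lower, with a median of −0.14. Genes without introns are in neither exon class. Span alone set genes less apart, with 28.7% lower under 10 kb, 27.0% from 10 to 50 kb and 19.5% at 50 kb or more. These classes were chosen after the members' values were seen, and the part of gene structure in the members' ratios was not tested.

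RefSeq promoter windows, 250 bases before to 50 after a start site on GRCh38.p14, were given for 6 of the 8 members. None was given for ELAVL1 and ZFP36L2. The windows of ZFP36 at chr19:39406597-39406896 (+) and ZFP36L1 at chr14:68793367-68793666 (−) are shown. Both genes were called lower, as was TIAL1, whose window is not printed. The further window of ZFP36L1, at chr14:68796194-68796493 (−) over the annotated gene start, held 1 CCAAT box and 0 full cyclic AMP response elements. Capitals mark 5 motifs on either strand, merged where they overlap. They are the GC box with the letters GGGCGG, the cyclic AMP response element TGACGTCA, the TATA box with the letters TATAAA, the CCAAT box and the CArG box.
ZFP36: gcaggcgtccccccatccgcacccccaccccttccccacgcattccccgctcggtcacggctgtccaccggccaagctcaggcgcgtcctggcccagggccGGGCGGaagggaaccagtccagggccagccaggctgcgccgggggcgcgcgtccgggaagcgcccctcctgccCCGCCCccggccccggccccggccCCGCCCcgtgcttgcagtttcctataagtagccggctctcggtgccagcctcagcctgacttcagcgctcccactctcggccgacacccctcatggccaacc
ZFP36L1: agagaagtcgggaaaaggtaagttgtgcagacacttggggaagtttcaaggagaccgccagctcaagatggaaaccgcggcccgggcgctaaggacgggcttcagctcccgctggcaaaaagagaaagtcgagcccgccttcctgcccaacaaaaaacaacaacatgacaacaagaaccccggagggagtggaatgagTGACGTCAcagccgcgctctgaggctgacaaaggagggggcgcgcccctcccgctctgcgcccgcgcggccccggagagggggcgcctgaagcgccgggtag
The ZFP36 window was 74.7% G and C and held 3 GC boxes, a motif found in 44.9% of 34943 promoter windows. The ZFP36L1 window was 62.3% G and C and held 1 full cyclic AMP response element, found in 1.84% of windows. Over all windows, 11.6% held a TATA box, 34.6% a CCAAT box and 1.30% a CArG box, the letters bound by serum response factor. ZFP36 and ZFP36L1 had 0 of these in the windows printed. The TIAL1 window held 0 copies of each of the 5 motifs. KHSRP had 2 GC boxes and 3 CCAAT boxes, and AUH 4 and 2. Among the genes called lower, ZFP36, ZFP36L1 and TIAL1 had windows. Since that of TIAL1 held 0 of the 5 motifs, no motif could be common to these genes, and nothing follows about shared elements.

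Other proteins known to bind AU-rich or related elements had 1 lower gene, 1 higher and 13 that were neither, of 15 tested. The share lower was 6.67%, beside 23.6% lower and 7.51% higher among all genes. Their median log2 ratio was 0.07, beside −0.84 for the 8 members and −0.13 for all tested genes. PCBP1, a poly(C)-binding protein, was 2.99-fold lower (128 counts in THZ1 and 515 in DMSO). YBX1, a cold-shock domain protein, was 2.22-fold higher (33827 counts in THZ1 and 20404 in DMSO). That call was lost with total counts, which gave YBX1 a ratio of 0.74. The p38-pathway substrate HNRNPA0 (−0.73), the KHSRP relative FUBP3 (0.70) and HNRNPC (0.70) were not called. HNRNPD, known as AUF1, had 4196 counts in THZ1 and 5016 in DMSO, a ratio of 0.17, and is named after its values were seen. Related copies of these genes elsewhere in the genome were not examined, those of PCBP1, YBX1 and HNRNPC among them, so their counts are uncertain. The neuronal HuR relatives ELAVL3 (2 counts in THZ1 and 2 in DMSO) and ELAVL4 (0 counts in THZ1 and 0 in DMSO) were at or under the floor of 3 counts, and ELAVL2 had 9 in THZ1 and 5 in DMSO.

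ZFP36 proteins and KHSRP act through factors that deadenylate, decap and degrade mRNAs. Of 39 tested, 10 were lower (25.6%), 0 higher and 29 neither. All tested genes had a close share lower (23.6%) and 7.51% higher. The median was −0.60, beside −0.13 for all tested genes, and 29 of the 39 ratios lay below 0. TOB2, an adaptor between mRNA-bound proteins and the CCR4-NOT deadenylase, was 8.16-fold lower (88 counts in THZ1 and 968 in DMSO). CNOT6L, a catalytic deadenylase subunit, was 5.46-fold lower (141 counts in THZ1 and 1036 in DMSO). BTG1, a further deadenylase adaptor, was 4.12-fold lower (40 counts in THZ1 and 223 in DMSO). DDX6, the helicase of P-bodies, had 1085 counts in THZ1 and 5047 in DMSO, 3.47-fold lower, and the decapping activator DCP1A was 3.22-fold lower (243 counts in THZ1 and 1052 in DMSO). The other lower genes were CNOT8 (−1.55), CNOT2 (−1.39), EDC3 (−1.34), EXOSC6 (−1.09) and CNOT9 (−1.02). CNOT1, the scaffold that ZFP36 proteins contact, had a ratio of 0.09 (5670 counts in THZ1 and 7123 in DMSO), and −0.32 with total counts. With total counts 20 of the 39 were lower, beside 34.2% of all genes.

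Kinases and other regulators of the 8 proteins had 4 lower, 1 higher and 17 neither, of 22 tested. That is 18.2% lower, under the 23.6% of all genes, and the 1 higher gene stands beside 7.51% of all genes. MAP2K3, which activates the p38 kinases upstream of ZFP36 phosphorylation, was 5.65-fold lower (103 counts in THZ1 and 784 in DMSO). MAP2K6, the parallel p38 activator, was 2.33-fold higher (264 counts in THZ1 and 152 in DMSO), a call lost with total counts (0.80). DUSP1, the phosphatase that switches p38 off and itself an AU-rich mRNA, was 2.68-fold lower (382 counts in THZ1 and 1374 in DMSO). PRKCD, a protein kinase C that phosphorylates HuR, was 2.86-fold lower (103 counts in THZ1 and 397 in DMSO). YWHAH, a member of the family whose proteins bind phosphorylated ZFP36, was 2.46-fold lower (632 counts in THZ1 and 2089 in DMSO). The p38 gene MAPK14 had a ratio of −0.98 and its effector MAPKAPK2 one of −0.46, both within 2-fold.

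Genes listed as classical AU-rich mRNAs, whose binding by these proteins was not tested here, held calls of either sign. The 33 tested included 12 lower genes (36.4%), 2 higher ones and 19 within the limits, beside 23.6% lower and 7.51% higher among all genes. Their median was −0.53, beside −0.13 for all genes. DUSP6, a phosphatase for ERK with 0 heptamers, was 7.94-fold lower (48 counts in THZ1 and 516 in DMSO). BIRC3, an inhibitor of apoptosis with 3 heptamers, was 6.49-fold lower (718 counts in THZ1 and 6252 in DMSO). The AP-1 gene JUN, with 1, was 5.54-fold lower (201 counts in THZ1 and 1495 in DMSO). FOS, with 2 heptamers, was 15.5-fold higher (421 counts in THZ1 and 36 in DMSO). EGR1, with 0, was 5.05-fold higher (1256 counts in THZ1 and 333 in DMSO). CXCL8, with the densest printed window among the targets, had 1969 counts in THZ1 and 2538 in DMSO. Its ratio was 0.06 (−0.03 to 0.14), and −0.36 with total counts. MCL1, with 3 heptamers, had a ratio of −0.75, and PLAUR, with 0, one of −0.18. TNF, CSF2 and PTGS2 had 0 counts in both libraries.

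**Figure D4:**
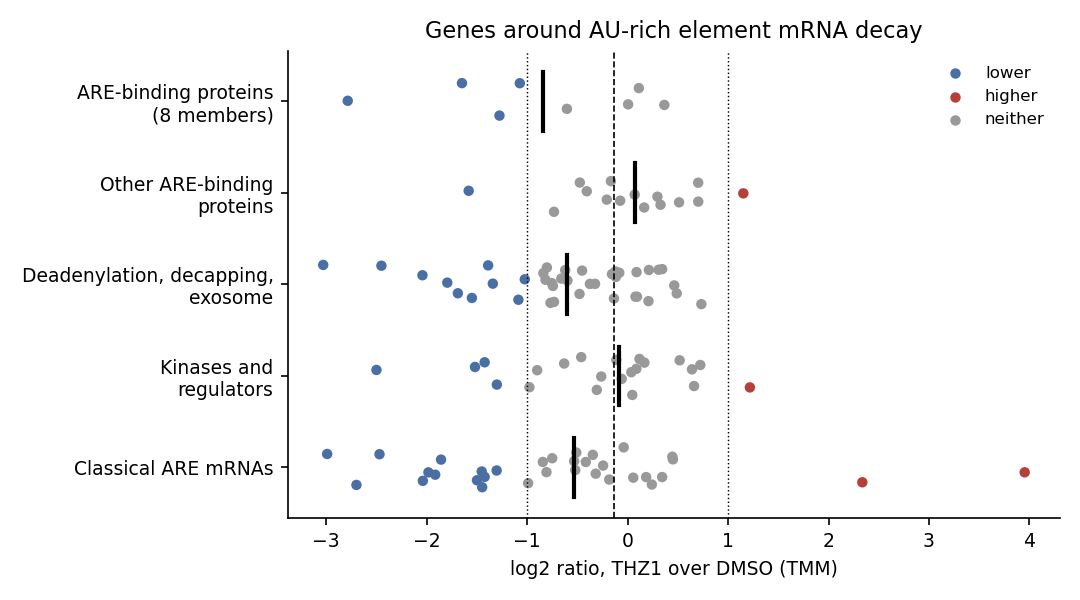
Log2 ratio of THZ1 over DMSO for each tested gene of the 5 lists, with genes called lower in blue, higher in red and neither in grey; black bars are list medians, the dashed line the median of all tested genes (−0.13) and dotted lines 2-fold. The 8 members have the lowest median (−0.84), and FOS lies farthest right at 3.95.

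Across the transcriptome, with all UTR lengths pooled, the number of heptamers in the 3′ UTR went with small differences in ratio. The 818 tested coding genes with 3 or more heptamers, as the ZFP36 genes and ELAVL1 have, had a median log2 ratio of −0.08 (order-statistic 95% interval −0.19 to −0.004), and 20.9% were lower. Genes with 0 heptamers numbered 6836, with a median of −0.15 (−0.17 to −0.12) and 23.7% lower. Those with 1 had a median of −0.23 and 26.9% lower, and those with 2 had −0.22 and 26.3%. Longer UTRs hold more heptamers, with a median length of 4548 bases at 3 or more and 950 at 0. Among UTRs of up to 838 bases, 19 genes had 3 or more heptamers, ZFP36 among them. Of these 9 (47.4%) were lower, beside 19.9% of 3127 genes with 0. Their median was −0.64 (−1.498 to 0.332), an interval that holds the −0.03 of the genes with 0. In this length class, 413 genes with 1 heptamer had a median of −0.12 and 21.8% lower. The 60 genes with 2 had −0.38 and 26.7%. Among UTRs of 839 to 2245 bases, 117 genes with 3 or more had a median of −0.37 (−0.53 to −0.04), overlapping the −0.25 (−0.30 to −0.19) of 2436 genes with 0. Their shares lower were 27.4% and 27.0%. Genes of this length with 1 and 2 heptamers had medians of −0.18 and −0.19, with 26.8% and 27.3% lower. Among UTRs of 2246 bases or more, 682 such genes had a median of −0.04 (−0.13 to 0.04), above the −0.27 (−0.34 to −0.20) of 1273 genes with 0. Here the shares lower were 19.1% and 26.7%. Of the 3 length classes, only the longest UTRs gave intervals of the median for 3 or more and for 0 heptamers that did not overlap. ZFP36, ZFP36L1 and ZFP36L2 lay below the median of their heptamer class and ELAVL1 above it.

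**Figure D5:**
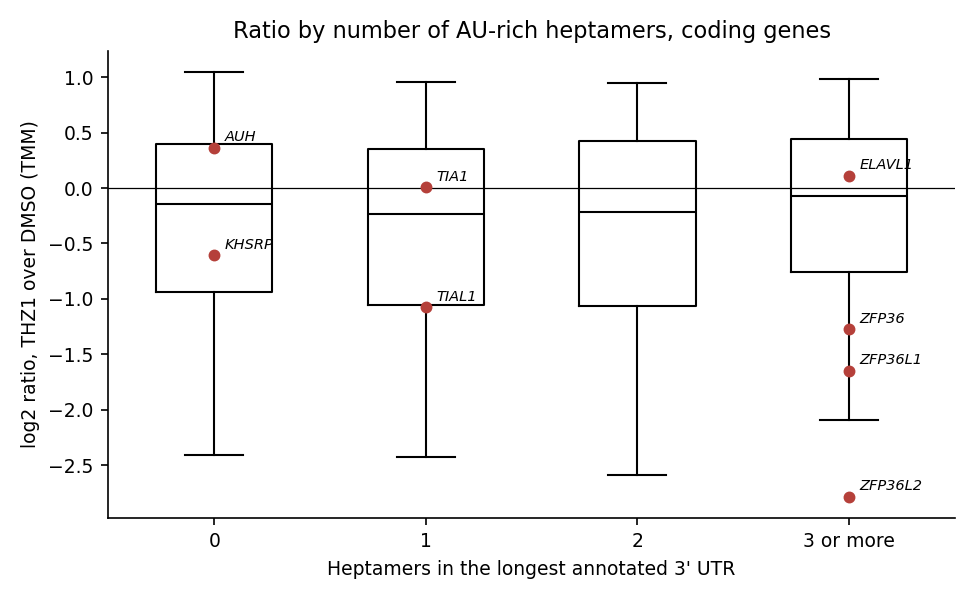
Log2 ratio of THZ1 over DMSO for 10855 tested coding genes by the number of heptamers in the longest annotated 3′ UTR; boxes give quartiles and median, whiskers the 5th to 95th percentile, and red points the 8 members. The class medians lie between −0.23 and −0.08, while ZFP36L2 lies below the whisker of its class.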

How the data were processed

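The authors deposited whole-number counts of reads for each gene, with no normalization, in 1 table per library. Per the submitters' processing notes, featureCounts 1.6.0, HISAT2 2.1.0 and Trimmomatic 0.38 were used with GRCh38. Annotation release, strandedness and multimapping settings are not given in sources used here, so overlapping, antisense and duplicated genes are uncertain. Of 58884 IDs, 58472 matched a symbol and 58611 were in GENCODE 29, the source of coordinates, exonic lengths and 3′ UTRs.

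TMM factors (edgeR 4.0.16, R 4.3.3) on all genes with a count gave effective library sizes of 15873737 for THZ1 and 21281300 for DMSO. Ratios used 0.5 added counts, and their intervals are exact Clopper-Pearson intervals of the THZ1 share. Intervals and the floor of 3 counts (0.189 CPM in THZ1 and 0.141 CPM in DMSO) cover counting error only, since no molecular identifiers are reported and reads may be copies of 1 molecule. Ratios of counts between genes have exact conditional intervals. With 1 library per group, no count model has residual degrees of freedom. The calling code was tested on simulated counts with counting error only. Such counts cannot show how often differences between libraries or the scaling lead to a call.

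The members and the gene lists were chosen with earlier results of these data known. Named genes are the members and, in each list, up to 5 genes with 100 or more counts and the ratios furthest from 0, with the called members of the decay and regulator lists, and the targets FOS, MCL1, PLAUR and CXCL8. List members named outside this rule, after their values were seen, are CNOT1, HNRNPD, ELAVL2, ELAVL3, ELAVL4, MAPK14, MAPKAPK2, TNF, CSF2 and PTGS2. Alternatives used other scalings (DESeq2 1.42.0 size factors among them), count minimums, calling rules, added counts, motifs and UTR choices. Scripts ran in Python 3.11.15 with scipy 1.17.1 for intervals, pandas 2.3.3 and numpy 2.4.6 for tables, and matplotlib 3.10.9 for figures.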

Additional observations from a re-analysis of the deposited data

How the results depend on the processing

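The results rest on the scaling, since a change of scaling moves every ratio alike: by −0.41 with total counts, −1.59 with the mitochondrially encoded mRNAs, 0.54 with the upper quartile, −0.01 with DESeq2 size factors and 0.10 with TMM on genes with 30 or more counts, the last added after seeing the data. With total counts 368 of all genes were higher. Other binding proteins then had 2 lower and 0 higher, decay factors 20 lower, and regulators 7 lower and 0 higher, while ELAVL1 (−0.30), TIA1 (−0.41) and AUH (−0.046) changed sign. With DESeq2 size factors TIA1 had −0.0021. With the upper quartile, 1761 of all genes (14.1%) were lower and 3037 higher, 2 of the 8 members were lower (ZFP36 and TIAL1 were not), other binding proteins had 4 higher, decay factors 6 lower and 3 higher, regulators 1 lower and 5 higher, and AU-rich mRNAs 7 lower. With the mitochondrial reference, 10000 of all genes (80.3%) were lower and 88 higher, all 8 members were lower (ELAVL1 −1.47, TIA1 −1.58, AUH −1.22), other binding proteins had 12 lower and 0 higher, decay factors 38 lower, regulators 18 lower and 0 higher, and AU-rich mRNAs 31 lower and 1 higher.

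The main setting gave 936 higher genes of 12457 tested. A minimum of 1 count gave 1846 of 27211, and a minimum of 100 gave 607 of 10268, at which ZFP36 was not tested. Protein-coding genes alone gave 599 of 10881. These counts thus differ in the number of genes tested. With the whole interval beyond 2-fold, 2113 of all genes (17.0%) were lower and 498 higher, 2 of the 8 members were lower (ZFP36L1 and ZFP36L2) and 0 regulators were higher. The difference in median ratio between genes with 3 or more and 0 heptamers, 0.07, was −0.042 with the nonamer TTATTTATT. It was −0.61, −0.12 and 0.24 for UTRs of up to 838, 839 to 2245 and 2246 or more bases, with overlapping intervals in the first 2, and moved less with the pentamer ATTTA, the UTR of the longest coding sequence, count minimums or total counts. The causes were not tested. No paired analysis was possible because each group has 1 library. At this depth, ZFP36 (20 counts in THZ1 and 66 in DMSO) has the widest interval of the 8.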
